A study of Mus musculus with 12 samples.

Results

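The enzymes described here break down histidine, serine, glycine, threonine and proline in the liver. The list holds 10 genes, *Hal*, *Uroc1*, *Amdhd1*, *Ftcd*, *Sds*, *Gldc*, *Amt*, *Tdh*, *Prodh* and *Aldh4a1*, taken by symbol. Signals were taken from probe sets that name 1 gene, and each enzyme found had 1 such probe set. That gave 8 measured genes of the 19938 genes on the array. No probe set in the annotation used here names *Sds*, the serine dehydratase that turns serine into pyruvate, or *Tdh*, the threonine dehydrogenase, and neither is analysed here.

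Liver RNA was measured on Affymetrix mouse gene arrays in 12 suckling pups at postnatal day 2 (P2), with 1 array per pup. There were 6 *Ppara*-/- pups, which lack functional PPARα in every tissue, and 6 *Ppara*+/+ pups, each group with 3 males and 3 females. Crosses between heterozygous parents gave both genotypes in the same litters. By the methods of the study, the array samples of each genotype were picked at random out of 3 litters. Littermates are therefore among the 6 pups of a genotype, but no label ties a pup to its litter. All p-values here, from limma and by permutation, treat the pups as independent and measure the spread among pups without regard to litter. The labels give the strain as SV129 and the methods of the study give a C57BL/6 background. Fetal livers are not analysed here.

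Histidine is degraded in the liver by enzymes acting in sequence. *Hal* encodes histidine ammonia-lyase, which removes ammonia from histidine to give urocanate, *Uroc1* encodes the urocanate hydratase, *Amdhd1* encodes the imidazolonepropionase that opens the ring, and *Ftcd* encodes the enzyme that passes the formimino group to tetrahydrofolate and leaves glutamate. Glycine is split in mitochondria by the glycine cleavage system, in which *Gldc* encodes the decarboxylase (P protein) and *Amt* the aminomethyltransferase (T protein), again with tetrahydrofolate as the acceptor. Proline is oxidised by the product of *Prodh*, and the product of *Aldh4a1* carries the resulting carboxylate on to glutamate.

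The sequences just upstream of the 3 genes that passed the test, and of *Uroc1*, which lies between them in the pathway, are printed to show what the pathway's start regions do and do not share. They come from RefSeq (GRCm38.p6), which matched 8 of the 10 genes. Each reads 5′ to 3′ on the strand of the gene and stops at the base before its annotated start. Capitals mark, on either strand, the TATA box core TATAAA, the promoter motif CCAAT and the nuclear receptor motif AGGTCA.
Hal, chr10:93488518-93488767, plus strand: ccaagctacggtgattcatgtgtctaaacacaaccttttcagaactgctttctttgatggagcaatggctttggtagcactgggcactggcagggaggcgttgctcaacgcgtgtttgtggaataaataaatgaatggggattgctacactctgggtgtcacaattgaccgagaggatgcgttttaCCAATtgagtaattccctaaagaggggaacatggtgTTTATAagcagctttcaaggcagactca
Uroc1, chr6:90333039-90333238, plus strand: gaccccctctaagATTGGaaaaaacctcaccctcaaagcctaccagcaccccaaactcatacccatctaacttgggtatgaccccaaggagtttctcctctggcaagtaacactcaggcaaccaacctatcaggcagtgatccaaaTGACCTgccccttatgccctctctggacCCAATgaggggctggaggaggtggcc
Amdhd1, chr10:93540112-93540283, minus strand: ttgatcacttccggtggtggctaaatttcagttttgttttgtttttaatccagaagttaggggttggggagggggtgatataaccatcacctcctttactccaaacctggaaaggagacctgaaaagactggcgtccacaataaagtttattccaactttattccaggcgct
Ftcd, chr10:76575398-76575647, plus strand: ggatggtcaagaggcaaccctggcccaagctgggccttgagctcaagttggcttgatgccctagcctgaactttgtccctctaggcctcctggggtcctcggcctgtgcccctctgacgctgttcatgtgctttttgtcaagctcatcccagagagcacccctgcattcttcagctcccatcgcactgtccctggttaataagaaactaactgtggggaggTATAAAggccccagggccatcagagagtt

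Letters were counted in windows of 300 bases, 250 before and 50 after each promoter's start, over 32851 RefSeq promoters and on both strands. For *Uroc1*, *Amdhd1*, *Prodh* and *Aldh4a1* that start lay inside the annotated gene. Of their 250 bases before it, only 200, 172, 157 and 227 lie outside the gene. TATAAA stood in the windows of *Hal* and *Ftcd*, that is in 2 of the 8 genes, and in 13.6% of all promoters. In *Hal* it lay on the opposite strand. CCAAT stood in 5 of the 8, those of *Hal*, *Uroc1*, *Gldc*, *Amt* and *Aldh4a1*, and in 37.4% of all promoters. AGGTCA stood in 2, those of *Uroc1* and *Amt*, and in 16.3% of all promoters. A direct repeat of AGGTCA with any 1 base between the copies, a strict spelling of the element that PPARα and its partner RXR bind, was found in 0 of the 8 windows and in 0.0396% of all promoters. The cAMP response element TGACGTCA was in 0 of the 8 and in 1.79% of all promoters, and AGAACA followed by any 3 bases and TGTTC, a spelling of the glucocorticoid response element, was in 0 of the 8 and in 0.0487%. The windows of *Amdhd1* and *Prodh* held none of these motifs. These matches describe the letters in a short window only.

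*Hal* (chr10:93488768-93516761, plus strand) and *Amdhd1* (chr10:93523338-93540111, minus strand) are neighbours whose 3′ ends face each other across 6576 bases, with 0 annotated genes wholly between them. *Ftcd* lies on the same chromosome (chr10:76575648-76590338), while *Uroc1* is at chr6:90333239-90364551.

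Libraries and labels were checked first. Array medians ran from 7.16 to 7.20 on the log2 scale and correlations between arrays from 0.989 to 0.996. *Ppara* was lower in *Ppara*-/- livers (10.27 ± 0.05) than in *Ppara*+/+ livers (11.16 ± 0.12; SD, n = 6 each), with no overlap. All signals below are log2 RMA values, on which a difference of 1 is a doubling, and signals of different genes are not set against each other because each probe set has its own brightness. The genotype term came from limma fits that also held sex. A gene was called when its Benjamini-Hochberg adjusted p, taken over the whole array of 35556 probe sets, was under 0.05. The exact permutation test quoted beside it is two-sided, takes 1 gene at a time and cannot give a p below 0.00216 with 6 pups against 6.

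Transcripts for 3 of the 4 steps of histidine breakdown were higher in *Ppara*-/- livers. *Hal*, *Amdhd1* and *Ftcd* were called higher and did not overlap between genotypes, and *Uroc1* was not called. In the glycine cleavage system, *Gldc* gave a log2 fold change of 0.12 and *Amt* of -0.17, and neither was called. The proline genes *Prodh* and *Aldh4a1* were not called. In all, 3 of the 8 measured genes were called higher and 0 lower, where 1.99% of all genes were called higher and 1.12% lower. Genotypes were free of overlap, with every *Ppara*-/- pup above, in 3 of the 8 genes, a pattern found in 2.88% of all genes, and with every *Ppara*-/- pup below in 0 of the 8, against 1.43% of all genes. By the unadjusted permutation test 5 of the 8 were higher and 1 lower at p under 0.05, where 10.3% and 8.72% of all genes were. The log2 fold change was positive for 7 of the 8 genes and for 45.1% of all genes. The median log2 fold change was 0.15 over the 8 genes, 0.23 over the 4 histidine genes, and -0.01 over all genes. In its own summary of these samples the study lists *Hal*, *Uroc1*, *Amdhd1*, *Ftcd* and *Sds* as up-regulated. It lists *Oat*, *Cth* and *Glud*, among others, as up-regulated as well. The direction of these genes here is therefore not independent evidence, and *Uroc1* and *Glud1* were not called here.

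**Figure D1:**
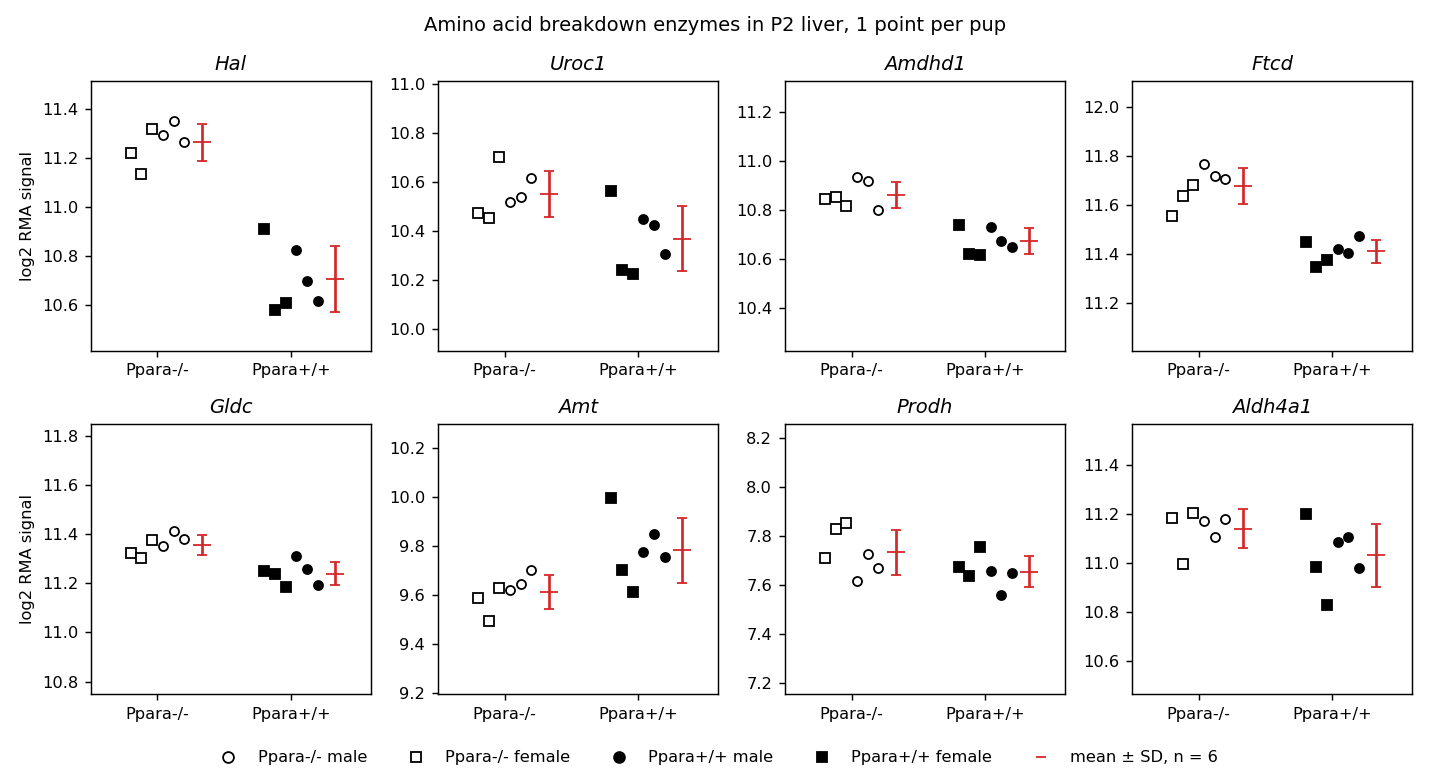
Log2 RMA signal (y axes, each spanning the same range) of the 8 measured enzymes in 6 *Ppara*-/- pups (open symbols) and 6 *Ppara*+/+ pups (filled symbols), with males as circles and females as squares and red marks for the mean ± SD. The genotypes do not overlap for *Hal*, *Amdhd1* and *Ftcd*, and overlap for the other 5 genes.

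*Hal*, the first and committing step, showed the largest difference of the 8 genes. Its lowest, median and highest signals were 11.14, 11.28 and 11.35 in *Ppara*-/- livers, against 10.58, 10.66 and 10.91 in *Ppara*+/+ livers. Every *Ppara*-/- pup lay above every *Ppara*+/+ pup, and the *Ppara*+/+ values spread more, with 2 pups, female replicate 7 at 10.91 and male replicate 1 at 10.83, above the others. Means were 11.26 ± 0.08 in *Ppara*-/- livers and 10.71 ± 0.13 in *Ppara*+/+ livers (SD, n = 6 each). The log2 fold change was 0.56 with SE 0.0633 (95% interval 0.42 to 0.70; 1.47-fold; adjusted p = 0.00058, limma), and the exact permutation p was 0.00216. *Hal* was the only one of the 8 genes called with a change above 1.3-fold, a size and call reached by 0.707% of all genes in this direction.

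*Uroc1*, the urocanate hydratase, ranged from 10.45 over a median of 10.53 to 10.70 in *Ppara*-/- livers, against 10.22, 10.36 and 10.56 in *Ppara*+/+ livers. Only 2 of the 6 *Ppara*-/- pups lay above all *Ppara*+/+ pups, with female replicate 7 of *Ppara*+/+ at 10.56 and the other 5 *Ppara*+/+ pups at or below 10.45. The log2 fold change was 0.18 with SE 0.0672 (95% interval 0.03 to 0.33; adjusted p = 0.226, limma; exact permutation p = 0.026, unadjusted). Without *Ppara*+/+ replicate 7 it was 0.23 (adjusted p = 0.0535), still not called.

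*Amdhd1*, the ring-opening imidazolonepropionase, differed little within each genotype. Its lowest, median and highest signals were 10.80, 10.85 and 10.93 in *Ppara*-/- livers, against 10.62, 10.66 and 10.74 in *Ppara*+/+ livers. The groups did not overlap, with a narrow gap between the lowest *Ppara*-/- and the highest *Ppara*+/+ pup. Means were 10.86 ± 0.05 in *Ppara*-/- livers and 10.67 ± 0.05 in *Ppara*+/+ livers, a log2 fold change of 0.19 with SE 0.0386 (95% interval 0.10 to 0.27; 1.14-fold; adjusted p = 0.0265, limma; exact permutation p = 0.00216). The call was lost, at adjusted p from 0.0522 to 0.0753, when any of *Ppara*-/- replicates 4, 5, 10, 11 or 12 or *Ppara*+/+ replicates 2, 3, 8 or 9 was left out. It held in the other 3 of the 12 such fits, those without *Ppara*-/- replicate 6 and *Ppara*+/+ replicates 1 or 7. The log2 fold change itself stayed between 0.18 and 0.21.

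*Ftcd*, which hands a carbon of the histidine ring to the folate pool, had lowest, median and highest signals of 11.56, 11.70 and 11.77 in *Ppara*-/- livers, against 11.35, 11.41 and 11.47 in *Ppara*+/+ livers. All *Ppara*-/- pups lay above all *Ppara*+/+ pups. Means were 11.68 ± 0.07 in *Ppara*-/- livers and 11.41 ± 0.05 in *Ppara*+/+ livers, a log2 fold change of 0.27 with SE 0.0374 (95% interval 0.18 to 0.35; 1.202-fold; adjusted p = 0.00258, limma; exact permutation p = 0.00216). *Hal* and *Ftcd* were called with each of the 12 arrays left out in turn, with the largest adjusted p at 0.00263 for *Hal* and 0.00961 for *Ftcd*.

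**Figure D2:**
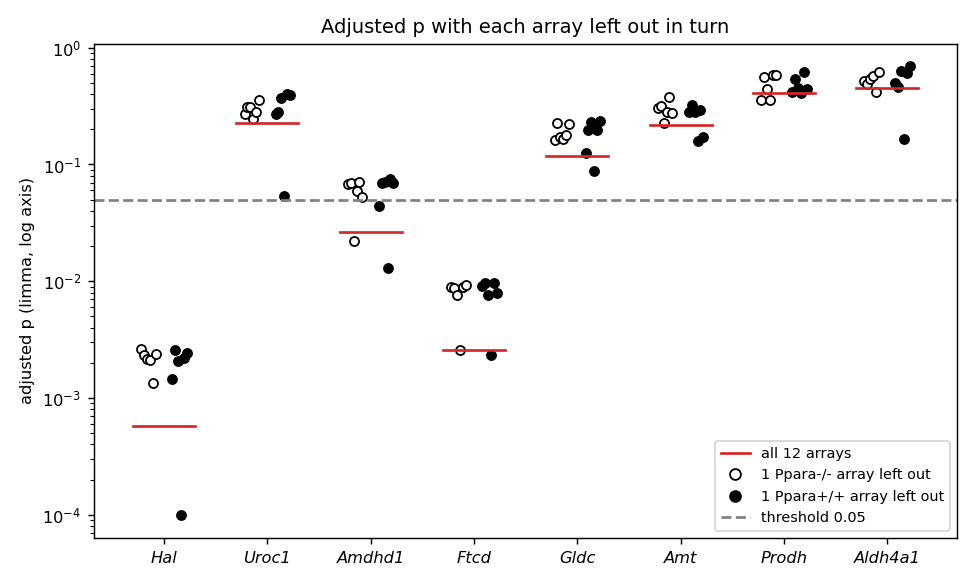
Adjusted p from limma (log y axis) for each of the 8 enzymes (x axis) with all 12 arrays (red line) and with each *Ppara*-/- array (open points) or *Ppara*+/+ array (filled points) left out in turn, with the threshold dashed. *Hal* and *Ftcd* stay under 0.05 throughout, *Amdhd1* lies on both sides of it, and the other 5 genes stay above it.

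Within a genotype, pups with a high *Hal* signal could be compared with their signals for the later histidine enzymes. In *Ppara*+/+ livers (n = 6) *Hal* ran with *Uroc1* at r = 0.95 (exact permutation p = 0.00278, adjusted over the 6 relations computed 0.00833; rho = 0.94, p = 0.0167, adjusted 0.05) and with *Amdhd1* at r = 0.97 (exact permutation p = 0.00278, adjusted 0.00833; rho = 0.94, p = 0.0167, adjusted 0.05). These 2 relations had an adjusted permutation p under 0.05 for r only, since 0.05 for rho is not under the threshold. Without the 2 pups farthest from the median of *Hal* (n = 4), r was 0.93 and 0.90. With *Ftcd* it was r = 0.49 (p = 0.315, adjusted 0.378; rho = 0.66, p = 0.175, adjusted 0.21; exact permutation), and 0.34 without those 2 pups.

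In *Ppara*-/- livers (n = 6) none of the 3 relations had an adjusted permutation p under 0.05 for r or for rho. The values were r = 0.61 with *Uroc1* (p = 0.19, adjusted 0.294; rho = 0.71, p = 0.136, adjusted 0.21), r = 0.32 with *Amdhd1* (p = 0.546, adjusted 0.546; rho = 0.20, p = 0.714, adjusted 0.714) and r = 0.61 with *Ftcd* (p = 0.196, adjusted 0.294; rho = 0.66, p = 0.175, adjusted 0.21), all by exact permutation. Without the 2 pups farthest from the median of *Hal* (n = 4), r was 0.73, 0.15 and 0.74. *Hal* spanned a narrower range in these pups, 11.14 to 11.35, against 10.58 to 10.91 in *Ppara*+/+ pups, and the difference between genotypes in these correlations was not tested. The points of a plot share an array, so anything that moves a whole array moves both genes.

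**Figure D3:**
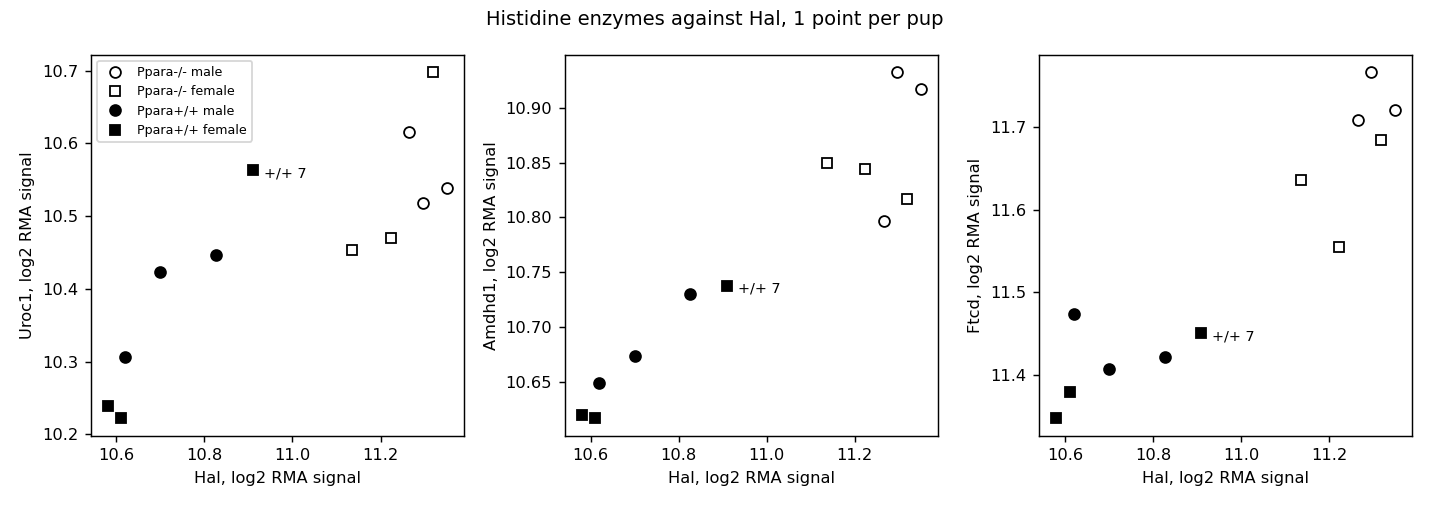
Log2 RMA signals of *Uroc1*, *Amdhd1* and *Ftcd* (y axes) against *Hal* (x axes), 1 point per pup, for 6 *Ppara*-/- pups (open) and 6 *Ppara*+/+ pups (filled), males as circles and females as squares. The *Ppara*-/- points lie to the right of the *Ppara*+/+ points in all panels, since *Hal* does not overlap, and the *Ppara*+/+ points climb together for *Uroc1* and *Amdhd1*.

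The glycine genes gave fold changes of opposite sign. *Gldc* (chr19:30098441-30175441), the glycine decarboxylase, had lowest, median and highest signals of 11.30, 11.36 and 11.41 in *Ppara*-/- livers, against 11.19, 11.24 and 11.31 in *Ppara*+/+ livers. Of the *Ppara*-/- pups 5 of 6 lay above all *Ppara*+/+ pups. Its log2 fold change was 0.12 with SE 0.0345 (95% interval 0.04 to 0.19; adjusted p = 0.119, limma; exact permutation p = 0.00433), which missed the threshold. It fell under it with a robust variance trend (adjusted p = 0.0352) and without the dimmest probe sets (0.0492), at the same fold change.

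*Amt* (chr9:108296905-108302302), whose product takes the aminomethyl group from the H protein to tetrahydrofolate, had lowest, median and highest signals of 9.50, 9.62 and 9.70 in *Ppara*-/- livers, against 9.61, 9.77 and 9.998 in *Ppara*+/+ livers. The groups overlapped, with 2 of 6 *Ppara*-/- pups below all *Ppara*+/+ pups, and *Ppara*+/+ replicate 7 stood highest at 9.998. The log2 fold change was -0.17 with SE 0.0611 (95% interval -0.30 to -0.03; adjusted p = 0.216, limma; exact permutation p = 0.0195, unadjusted). Without that pup it was -0.11 (adjusted p = 0.158). *Gldc* and *Amt* belong to the same complex, but the difference between their fold changes was not tested.

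The partners of these enzymes gave no call. *Gcsh*, the H protein that carries the aminomethyl group, had a log2 difference of -0.16 (adjusted p = 0.109), and *Dld*, the L protein shared with other mitochondrial complexes, 0.00 (adjusted p = 0.979). The 5 partners listed also hold the lipoate enzymes *Lias*, *Lipt1* and *Lipt2*. Of these 5, 0 were called in either direction, where 1.99% of all genes were called higher and 1.12% lower. The log2 fold change was positive for 0 of the 5 partners and for 45.1% of all genes. Their median was -0.04, or 0.01 without *Ppara*+/+ replicate 7.

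Proline oxidation gave no call. *Prodh* (chr16:18071726-18089283) had signals of 7.62 to 7.85 in *Ppara*-/- livers, with a median of 7.72, and of 7.56 to 7.75 in *Ppara*+/+ livers, with a median of 7.65. Its log2 fold change was 0.08 (95% interval -0.01 to 0.17; adjusted p = 0.41, limma; exact permutation p = 0.117). *Aldh4a1* (chr4:139622871-139649691) ranged from 10.996 over a median of 11.18 to 11.20 in *Ppara*-/- livers, against 10.83, 11.04 and 11.20 in *Ppara*+/+ livers, with a log2 fold change of 0.11 (95% interval -0.03 to 0.25; adjusted p = 0.455, limma; exact permutation p = 0.11), or 0.07 (adjusted p = 0.691) without *Ppara*+/+ replicate 9. The intervals of both genes include 0 and increases of 0.17 and 0.25.

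**Figure D4:**
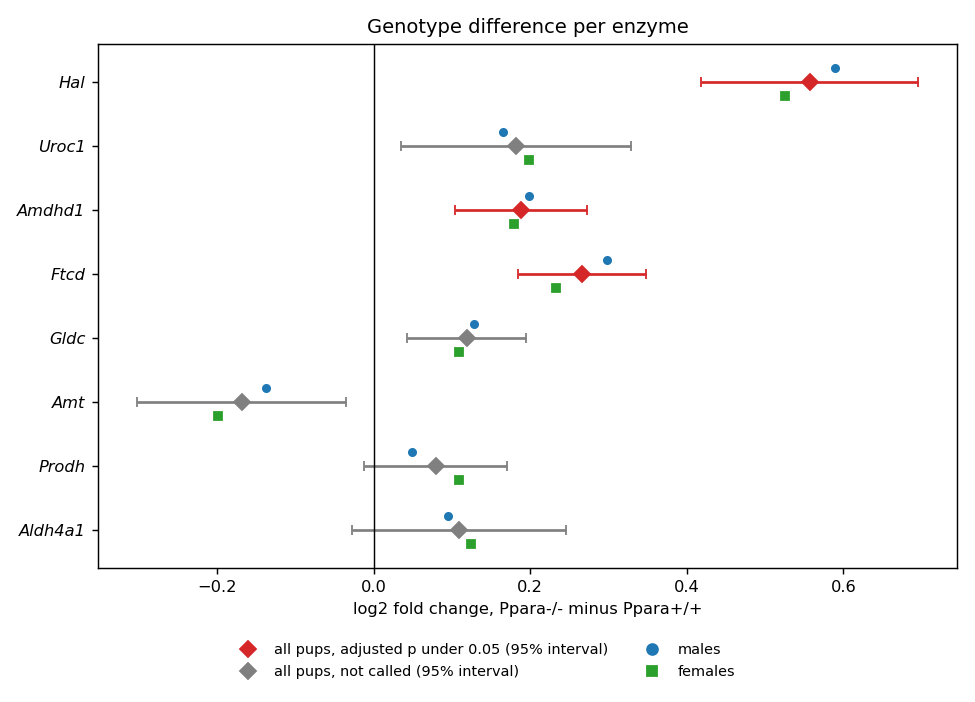
Log2 fold change, *Ppara*-/- minus *Ppara*+/+ (x axis), of the 8 enzymes (y axis), with diamonds and 95% intervals for all pups and circles and squares for males and females. *Hal*, *Amdhd1* and *Ftcd* (red) were called, and *Amt* is the only gene left of 0.

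The direction was alike in both sexes. The log2 fold change of *Hal* was 0.59 in males (adjusted p = 0.0206) and 0.53 in females (adjusted p = 0.0391), and *Ftcd* had 0.30 in males (adjusted p = 0.0395) and 0.23 in females (adjusted p = 0.121), all from limma. *Amdhd1* gave 0.20 and 0.18 in males and females, not called in either. In males 2 of the 8 genes were called higher, where 0.461% of all genes were, and in females 1 of the 8, where 0.321% were, while 0 were called lower in either sex, where 0.466% of all genes were in males and 0.487% in females. A difference between the sexes in the genotype effect was called for 0 of the 8 genes by limma's interaction test, where 0% of all genes were called, and 0 of the 8 had an unadjusted p under 0.05, where 1.79% of all genes did. A difference by sex itself was called for 0 of the 8, where 0.0401% of all genes were called. Only *Prodh*, 1 of the 8, had an unadjusted p under 0.05 for sex, where 2.78% of all genes did, at a log2 difference of -0.10, male minus female, and was named after its value was seen.

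The other enzymes of these pathways moved in part. Of 14 measured genes of glycine, serine and threonine metabolism, 3 were called higher and 1 lower, where 1.99% and 1.12% of all genes were. *Gnmt*, which methylates glycine with S-adenosylmethionine, had a mean of 12.40 ± 0.07 in *Ppara*-/- livers and 12.10 ± 0.08 in *Ppara*+/+ livers (log2 fold change 0.31, adjusted p = 0.0063). *Cth*, the cystathionine gamma-lyase, averaged 12.21 ± 0.06 in *Ppara*-/- livers and 11.93 ± 0.06 in *Ppara*+/+ livers (0.28, adjusted p = 0.0038), and *Agxt*, the alanine-glyoxylate aminotransferase, 11.86 ± 0.05 in *Ppara*-/- livers and 11.68 ± 0.06 in *Ppara*+/+ livers (0.18, adjusted p = 0.0307).

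*Psat1*, the phosphoserine aminotransferase of serine synthesis, fell, with a mean of 10.15 ± 0.12 in *Ppara*-/- livers and 10.53 ± 0.04 in *Ppara*+/+ livers (log2 fold change -0.38, adjusted p = 0.0037) and no overlap. The hydroxymethyltransferases *Shmt1* and *Shmt2*, which interconvert serine and glycine, gave log2 fold changes of 0.01 each (adjusted p = 0.924 and 0.954), and *Gcat*, which cleaves the product of threonine dehydrogenase, 0.14 (adjusted p = 0.184). *Sdsl*, a serine dehydratase-like gene, was not measured.

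Among enzymes that handle folate-bound carbon, 3 of 12 measured were called higher and 0 lower, with a median of 0.02. For this list and the next ones, the shares of all genes called were 1.99% higher and 1.12% lower. *Aldh1l1*, which oxidises the formyl group of formyltetrahydrofolate, averaged 12.02 ± 0.04 in *Ppara*-/- livers and 11.67 ± 0.12 in *Ppara*+/+ livers (log2 fold change 0.35, adjusted p = 0.0037). *Dmgdh*, the dimethylglycine dehydrogenase, gave 0.23 (adjusted p = 0.024), and *Fpgs*, which adds glutamate tails to folate, 0.20 (adjusted p = 0.0165). Of 7 other histidine genes, such as *Hdc* of histamine synthesis and the transporter *Slc38a3*, 0 were called in either direction (median 0.00). Of 7 other proline genes 1 was called higher: *Oat*, the ornithine aminotransferase, averaged 10.53 ± 0.16 in *Ppara*-/- livers and 9.94 ± 0.07 in *Ppara*+/+ livers (0.59, adjusted p = 0.00039). *Prodh2* and *Glud1*, the glutamate dehydrogenase, each gave 0.03 (adjusted p = 0.764 and 0.823), and of the 2 measured genes that handle the glutamate formed, *Glud1* and the glutamine synthetase *Glul*, 0 were called.

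Because amino acid breakdown is zoned in the liver lobule, lists of genes from around the portal and central veins were read beside the enzymes. Of 11 measured periportal genes 2 were called higher and 0 lower, with a median log2 fold change of 0.21 and 10 of 11 positive. Of all genes 1.99% were called higher and 1.12% lower, and 45.1% were positive. *Etnppl*, the ethanolamine-phosphate phospho-lyase, averaged 11.14 ± 0.10 in *Ppara*-/- livers and 10.39 ± 0.15 in *Ppara*+/+ livers (0.75, adjusted p = 0.00018), and *Cdh1*, E-cadherin, rose by 0.18 (adjusted p = 0.0314). Of 11 pericentral genes 2 were called higher, *Oat* and *Gulo* (0.23, adjusted p = 0.0377), and 1 lower, *Tbx3* (-0.27, adjusted p = 0.0147), with a median of 0.02. Over all these lists 10 different genes were called higher and 2 lower. The lists were chosen with earlier results of these data known, and the counts moved with single arrays. Leaving out *Ppara*+/+ replicate 7 gave 16 called higher, where 3.6% of all genes were, against 1.99% with all arrays. Without *Ppara*-/- replicates 6 or 12 or *Ppara*+/+ replicate 3 there were 6 each, where 1.47%, 1.46% and 1.34% of all genes were called higher. Without *Ppara*+/+ replicate 8 there were 5, where 1.3% of all genes were.

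**Figure D5:**
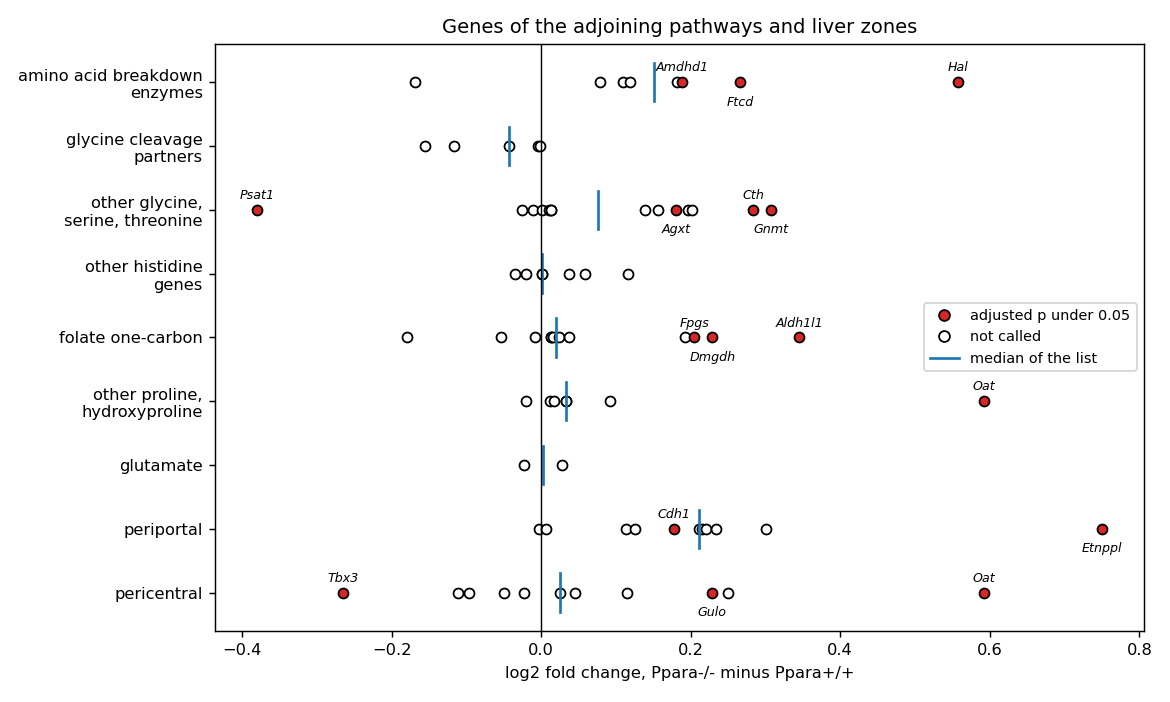
Log2 fold change, *Ppara*-/- minus *Ppara*+/+ (x axis), of the 8 enzymes (top row) and of the genes in each adjoining pathway or liver zone list (y axis), 1 point per gene, with red points called and blue lines for list medians. The periportal median of 0.21 lies farthest from 0.

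Whole liver at P2 holds other cells than hepatocytes, and in such bulk RNA fewer cells of a type and less RNA per cell cannot be told apart. None of the 9 hepatocyte markers was called, with a median log2 fold change of 0.01. Their mean signals ran from 12.25 to 14.26, and whether signals so bright can show a change was not tested. Erythroid markers gave negative values in 10 of 10 measured (median -0.19, 0 called), with a summed log2 level of 14.77 to 15.14 in *Ppara*-/- livers and 14.88 to 15.25 in *Ppara*+/+ livers. Kupffer cell markers gave positive values in 13 of 13 (median 0.19, 0 called), with a summed level of 14.33 to 14.49 in *Ppara*-/- livers and 14.14 to 14.45 in *Ppara*+/+ livers, and endothelial markers in 12 of 12 (median 0.13, 0 called; 14.01 to 14.13 in *Ppara*-/- livers and 13.86 to 14.04 in *Ppara*+/+ livers). The medians were 0.09 for 10 stellate, 0.07 for 5 cholangiocyte and 0.07 for 8 granulocyte markers, with 0 called in each. The counts of 0 for erythroid, Kupffer, endothelial and stellate markers rested on *Ppara*+/+ replicate 7. Without it 4 erythroid markers were called lower (median -0.26), and 5 Kupffer, 4 endothelial and 1 stellate marker were called higher (medians 0.23, 0.16 and 0.11). More of all genes were called without that pup too, 3.6% higher and 1.75% lower, against 1.99% and 1.12% with all arrays. The part of the marker shifts in the fold changes of the enzymes was not tested.

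Pancreatic acinar transcripts stood out in a few livers. The summed level of 8 markers ran from 9.76 to 12.63 in *Ppara*-/- livers and from 9.64 to 11.37 in *Ppara*+/+ livers. It was highest in *Ppara*-/- replicates 6 (12.63) and 10 (11.99), followed by *Ppara*+/+ replicate 9 (11.37). With the 2 *Ppara*-/- pups left out and *Ppara*+/+ replicate 9 kept, a choice made after seeing the data, the marker median was 0.02 in place of 0.54. *Hal* and *Ftcd* were as large, at log2 fold changes of 0.57 (adjusted p = 0.00781) and 0.29 (adjusted p = 0.00841), and *Amdhd1*, at 0.21, was no longer called (adjusted p = 0.0556), so that 2 of the 8 genes were called higher and 0 lower, where 0.998% and 0.818% of all genes were.

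Some pups stood highest or lowest of their genotype in several of the enzymes. *Ppara*+/+ replicate 7 was the highest of its genotype in 5 of the 8 enzymes, *Ppara*+/+ replicate 9 the lowest in 5, and *Ppara*-/- replicate 11 the lowest of its genotype in 5. Replicate 7 also had the lowest erythroid sum of the *Ppara*+/+ pups, 14.88, and the highest Kupffer sum, 14.45. Without it, 3 of the 8 enzymes were called higher and 0 lower (background 3.6% and 1.75%), the median over the 8 was 0.18, and *Hal* gave 0.61 (adjusted p = 9.9e-05).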

How the data were processed

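Liver RNA of 12 P2 pups was hybridised to Affymetrix mouse gene arrays, 1 array per pup. The authors deposited 1 log2 signal per probe set and array, summarised and normalized by RMA (version not given in the sources used), and no further normalization was applied. Of 35556 probe sets, 21789 name 1 gene, 1621 several and 12146 none here, and where several named the same gene alone the brightest on average was kept. R 4.3.3 with limma 3.58.1 (lmFit, eBayes) fitted genotype and sex, with 9 residual and 2.49 prior degrees of freedom, and p-values were adjusted over all probe sets by the Benjamini-Hochberg method. The number of arrays limits the precision. The fit was tried on simulated data with independent noise for each probe set and array. That simulation held no litter or array-wide shift, so it cannot show how the fit handles them. Sequences and promoter letters came from RefSeq GRCm38.p6.

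Genes named are the listed enzymes, *Ppara*, up to 3 called genes per direction of each related list, and fixed partners of the enzymes. Outside that rule, *Hdc*, *Slc38a3*, *Glul*, *Lias*, *Lipt1* and *Lipt2* are named as examples of what a list holds. The members and lists were chosen with earlier results of these data known. Alternatives were other models, normalizations, filters, thresholds, the exact permutation test and leaving out each array.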

Additional observations from a re-analysis of the deposited data

How the results depend on the processing

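No fold change of the 8 enzymes or of *Ppara* changed sign under an alternative run for it, while the median of the glycine cleavage partners was 0.01 without *Ppara*+/+ replicate 7, against -0.04 with all arrays. *Hal* was called in all 22 alternatives with adjusted p-values (log2 fold change 0.53 to 0.61; adjusted p 9.9e-05 to 0.00781) and *Ftcd* likewise (0.25 to 0.29; 0.00026 to 0.00961). *Uroc1* (adjusted p 0.0535 to 0.405), *Amt* (0.121 to 0.381), *Prodh* (0.274 to 0.623) and *Aldh4a1* (0.166 to 0.691) were called in none of them; *Gldc* ran from 0.0352 to 0.236 and *Amdhd1* from 0.00512 to 0.0753.

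The 3 enzymes called higher became 5, and the 0 called lower 1, by the unadjusted exact permutation test (10.3% and 8.72% of all genes), and 1 with a change above 1.3-fold. Leaving out each array gave 2 to 3 higher, where 1.3% to 3.6% of all genes were, 0 lower, where 0.808% to 1.75% were, and a median of 0.13 to 0.18. In the related lists, 10 genes called higher became 16 without dim probe sets, 16 with a robust variance trend, 24 by the permutation test and 5 without *Ppara*-/- replicates 6 and 10, an alternative chosen after seeing the data, and 5 to 16 with each array left out. The 2 called lower became 6 by the permutation test and 1 without those replicates. The cause of these changes was not tested. No paired analysis was possible because no label ties a pup to its litter. The number of arrays limits what small changes can be called; signal over background was not tested.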
